A study of Homo sapiens with 14 samples.

Results

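In TC-32, a Ewing sarcoma cell line, 3938 genomic regions carried a FLI1 peak in both libraries of one set, labelled B, and in neither library of the other set, labelled A. They were chosen by presence or absence in the 4 deposited FLI1 peak lists: rows on the 22 autosomes and chromosome X that shared at least 1 base were merged into 55109 union regions, and the regions that held a row of both set B lists and no row of either set A list were kept. They made up 7.15% of the union, beside 5683 regions with the mirror pattern (both set A lists, no set B list) and 16163 regions found in all 4 lists. All cells were untreated wild-type TC-32 cells, and the labels do not say what distinguishes set A from set B. CUT&RUN, in which a tethered nuclease releases the DNA that an antibody marks, was run with an antibody to FLI1 (2 libraries in each set), to the histone marks H3K27ac (2 libraries, set A only), H3K9me3 and H3K27me3 (2 libraries each, set B only), and with control IgG (2 libraries in each set).

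EWSR1::FLI1, the fusion oncoprotein that drives most Ewing sarcomas, joins the N-terminal part of the RNA-binding protein EWSR1 to the DNA-binding ETS domain of FLI1. It binds single ETS sites with the core GGAA, often at gene starts, and long tandem runs of GGAA away from genes. H3K27ac is found at active enhancers and promoters, H3K27me3 is laid down by Polycomb at silent developmental genes, and H3K9me3 marks heterochromatin.

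The sequences below show some of the strongest members and, for contrast, regions with a tandem GGAA run. Each is a window of 160 bases of hg38 inside the region, at its summit or, for the last 3, at its GGAA run, with GGAA and its reverse complement TTCC in capitals. The first 3 lie at the starts of the genes that name the strongest members, and the next 2 are members over 5 kb from any protein-coding start.
CORO1B, chr11:67443575-67443734, plus strand: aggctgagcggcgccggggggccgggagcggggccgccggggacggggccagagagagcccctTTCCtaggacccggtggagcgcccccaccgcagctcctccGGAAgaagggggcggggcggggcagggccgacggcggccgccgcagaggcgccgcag
NMT2, chr10:15168916-15169075, plus strand: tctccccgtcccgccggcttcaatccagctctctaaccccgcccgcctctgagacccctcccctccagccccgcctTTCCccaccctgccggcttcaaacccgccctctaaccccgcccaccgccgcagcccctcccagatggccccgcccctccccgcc
GPC1, chr2:240435316-240435475, plus strand: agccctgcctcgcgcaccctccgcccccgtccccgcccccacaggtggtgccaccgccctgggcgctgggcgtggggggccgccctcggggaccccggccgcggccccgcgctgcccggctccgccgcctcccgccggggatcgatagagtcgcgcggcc
IZUMO2 (nearest gene), chr19:50148030-50148189, plus strand: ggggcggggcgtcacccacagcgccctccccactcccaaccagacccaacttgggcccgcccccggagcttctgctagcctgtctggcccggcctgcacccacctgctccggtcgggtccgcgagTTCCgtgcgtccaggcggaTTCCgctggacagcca
RAP2B (nearest gene), chr3:153221860-153222019, plus strand: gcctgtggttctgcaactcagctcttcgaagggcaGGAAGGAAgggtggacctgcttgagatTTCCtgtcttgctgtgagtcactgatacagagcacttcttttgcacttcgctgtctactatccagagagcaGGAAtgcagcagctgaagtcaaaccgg
The CORO1B, NMT2 and GPC1 windows held 21, 13 and 24 CpG dinucleotides and 2, 1 and 0 copies of GGAA in either orientation, while the RAP2B window held 3 CpG and 4 copies. The windows from CORO1B to IZUMO2 were 72.5 to 83.75% G+C, while the median over all member regions was 56.8%. For contrast, the last 3 windows each come from a region with a run of at least 4 GGAA units inside it. They show the strongest such member, a strong region of all 4 lists and a strong set A only region. Most regions of every group lacked such a run. It lay inside 1.30% of the members, 1.74% of the set A only regions and 8.15% of the regions of all 4 lists.
SLC35F2 (set B only), chr11:107856782-107856941, plus strand: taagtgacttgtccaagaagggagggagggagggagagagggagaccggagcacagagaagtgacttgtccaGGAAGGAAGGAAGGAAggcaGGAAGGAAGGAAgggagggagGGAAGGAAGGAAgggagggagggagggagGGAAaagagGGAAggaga
ARG1 (nearest gene, all 4 lists), chr6:131383656-131383815, plus strand: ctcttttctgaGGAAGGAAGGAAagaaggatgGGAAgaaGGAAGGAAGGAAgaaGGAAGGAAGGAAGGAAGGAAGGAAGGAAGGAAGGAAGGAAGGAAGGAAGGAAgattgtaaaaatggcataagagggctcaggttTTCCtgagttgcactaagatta
GTF2H2C (nearest gene, set A only), chr5:69707628-69707787, plus strand: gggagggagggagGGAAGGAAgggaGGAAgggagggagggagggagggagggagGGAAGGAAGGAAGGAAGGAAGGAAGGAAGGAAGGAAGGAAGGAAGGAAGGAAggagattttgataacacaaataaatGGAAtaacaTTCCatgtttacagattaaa
The longest uninterrupted run was 4 units in the SLC35F2 window and 13 units in each of the other two.

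The members were weaker peaks than the regions found in all 4 lists. Their deposited fold enrichment had a median of 7.75 in set B replicate 1 (2.93 to 40.3) and 6.80 in replicate 2 (2.64 to 31.3). The medians for the regions found in all 4 lists were 12.04 and 10.1. Ranked within its whole list, the median member stood at percentile 45.5 in replicate 1 and 35.4 in replicate 2. Across members, the folds of the 2 replicates had a Spearman rho of 0.28 (n = 3938 regions of the same 2 libraries), against 0.65 across the 16163 regions of all 4 lists. These values chose the members and are given as a description, as is the edge of the rule. The weakest member by its lower −log10 q, near NXNL2, had 9.60 and 2.00 in the 2 set B lists. Just outside the rule, a region near GALNT10 had a fold of 6.62 and 5.69 in set B and was left out because set A replicate 2 held a row with a fold of 3.40. Exactly 1 set A list held a row at 2994 further regions of both set B lists, and that row had a −log10 q under 5 at 845 of them (28.2%).

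The share of set B regions absent from set A was lower at higher significance in set B. Of the 23095 regions in both set B lists, 17.1% were in no set A list. That share was 35.0% where the lower set B −log10 q was 2 to 5, 27.6% at 5 to 10, 13.6% at 10 to 20, 3.24% at 20 to 50 and 0.204% (4 regions) above 50. A set A row was close to some members without sharing a base: 117 (2.97%) had one within 100 bp and 638 (16.2%) within 1 kb. The number of members also rested on having both set B lists: with replicate 2 alone, 6061 regions were absent from set A, and with replicate 1 alone, 10496 were.

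**Figure D1:**
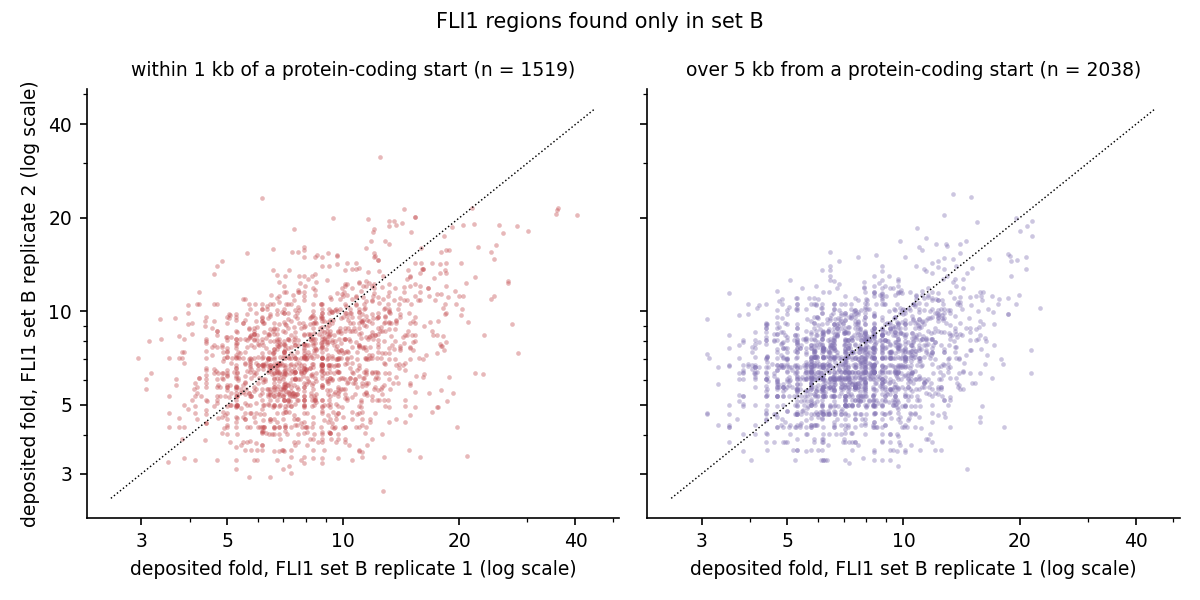
Deposited fold enrichment of each set B only region in FLI1 set B replicate 1 (horizontal, log scale) and replicate 2 (vertical, log scale), with 1519 regions within 1 kb of a protein-coding start on the left and 2038 regions over 5 kb from one on the right; the dotted line marks equal values. The points above 25 in replicate 1 are all in the left panel.

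Many members sat at gene starts. Within 1 kb of the 5′ end of a protein-coding transcript lay 1519 of the 3938 members (38.6%, exact binomial 95% interval 37.0 to 40.1), against 25.3% of the whole union, 9.11% of the set A only regions and 41.8% of the regions in all 4 lists. Over 5 kb from such a start lay 2038 members (51.8%, 50.2 to 53.3), against 64.7% of the union, 79.4% of the set A only regions and 51.2% of the regions in all 4 lists. The remaining 381 members (9.67%) fell between. A comparison at like strength took the 2043 regions of all 4 lists whose −log10 q in each set B list lay between the lower and upper quartile of the members' own, and 23.1% of these lay within 1 kb of a start. The interval covers counting error only, and regions of the same libraries are not replicates, so no test was made across them.

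**Figure D2:**
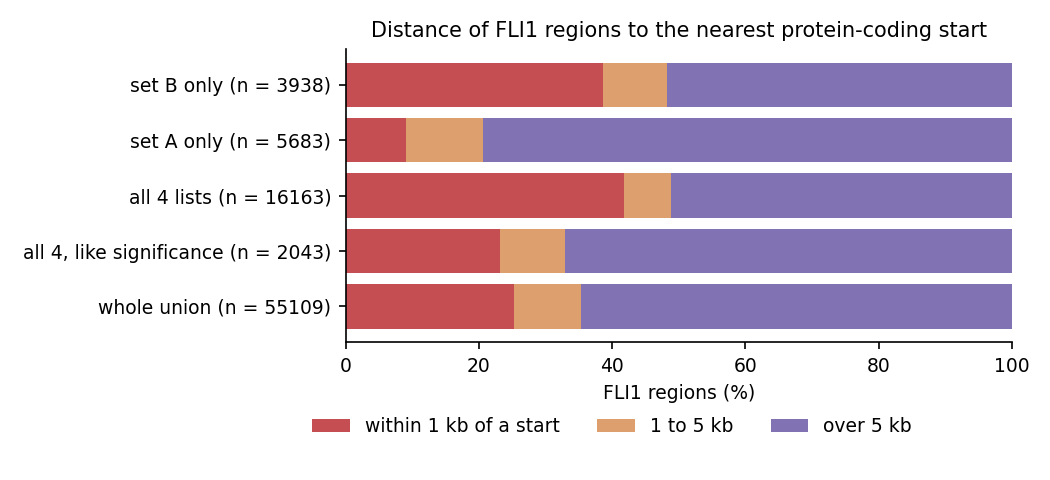
Share of FLI1 regions (horizontal, percent) within 1 kb, 1 to 5 kb and over 5 kb of the nearest protein-coding start for 5 groups of regions, with the number of regions beside each bar. The set B only regions had 38.6% at starts, the set A only regions 9.11% and the regions of all 4 lists with like significance 23.1%.

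By the gene model under the summit, 40.1% of the members lay in an intron of a protein-coding gene and 29.0% between genes. A UTR held 13.5%, a coding exon 5.08% and a lncRNA gene 10.3%. In the union the shares were 42.1% in introns, 30.75% between genes, 8.83% in UTRs, 2.98% in coding exons and 13.9% in lncRNA genes. In the regions of all 4 lists they were 36.6%, 29.2%, 14.5%, 4.43% and 13.4% in the same order. A lncRNA start was within 1 kb of 470 members (11.9%), against 10.2% of the union, and 192 of these were not also at a protein-coding start. The distal members had a median distance of 33.0 kb to the nearest start, against 58.8 kb for distal set A only regions and 48.6 kb for distal regions of all 4 lists. Over 50 kb away lay 20.1% of all members, 43.7% of the set A only regions and 25.2% of the regions of all 4 lists.

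The members were rich in G and C. Their median G+C content was 56.8%, against 41.5% in the set A only regions, 50.8% in the regions of all 4 lists, 45.7% in those of like significance and 47.1% in the union. At starts the medians were 69.95% in members, 53.8% in set A only regions and 60.8% in regions of all 4 lists, and among distal regions they were 50.8%, 40.7% and 44.1%. Base composition also separated the regions that set A lacked from those it shared. It was taken over the whole merged region, which for a shared region includes its set A rows. The median width was 462 bp in members and 1161 bp in all 4 lists, and the part of width in these G+C values was not tested. Of the regions in both set B lists, 4.10% of those with at most 40% G+C were absent from set A, against 9.71% between 40 and 45%, 13.4 to 20.8% between 45 and 70%, 37.1% between 70 and 75% and 70.1% (390 of 556 regions) above 75%. In the mirror comparison, 42.7% of the regions in both set A lists with at most 40% G+C were absent from set B, and 6.04 to 8.33% of those above 60% were.

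**Figure D3:**
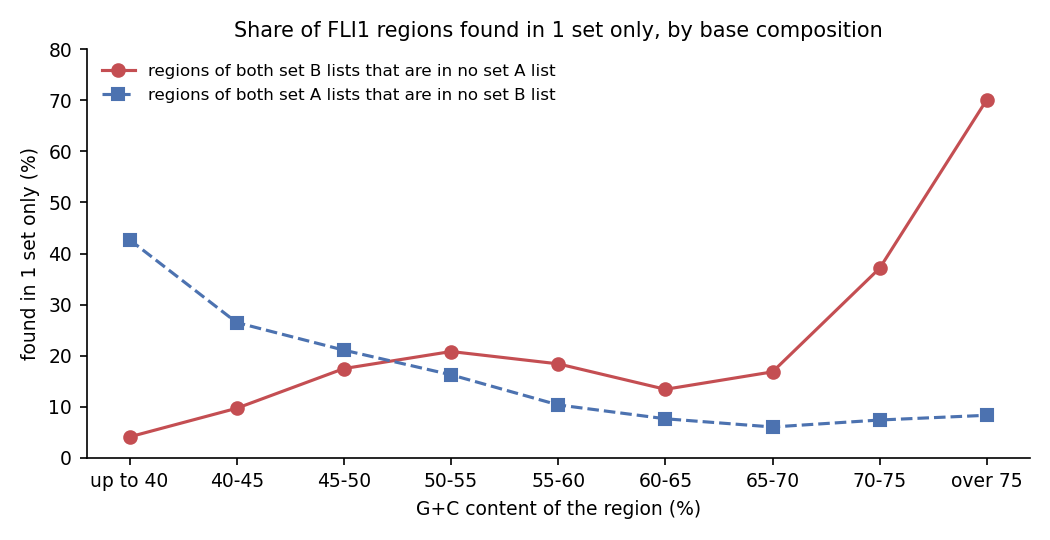
Share of FLI1 regions found in 1 set only (vertical, percent) by G+C content of the region (horizontal, percent): circles, regions of both set B lists that are in no set A list; squares, regions of both set A lists that are in no set B list. The set B share rises to 70.1% above 75% G+C, and the set A share is highest, 42.7%, at 40% G+C or less.

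At very high G+C content strong peaks were absent from set A too. Among set B regions above 75% G+C, 35.6% (31 of 87) of those with a lower −log10 q of 20 to 50 were in no set A list, and 30.0% (3 of 10) of those above 50. Among set B regions of at most 50% G+C, the shares at those 2 levels were 0.527% (8 of 1518) and 0 of 531. Over whole lists, union regions above 70% G+C made up 3.13% and 2.76% of the set A lists and 7.45% and 7.62% of the set B lists. The set B shares include the members, 465 at 70 to 75% G+C and 390 above 75%, which the rule keeps out of set A. The whole lists are therefore not separate from the choice of members. The part of base composition in the absence from set A was not tested, and set, library and base composition cannot be told apart here.

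Tandem GGAA was scarce in the members. Near the summit, in a window of 250 bp to each side, 49 members held 4 or more GGAA units in a row (1.24%, exact binomial 95% interval 0.922 to 1.64), against 3.19% of the union, 3.91% of the set A only regions and 5.73% of the regions of all 4 lists. Among distal regions the shares were 1.96% in members, 4.46% in set A only regions and 9.85% in all 4 lists. The contrast with the set A only regions rested on the window: counted anywhere in the region, the distal shares were 2.01%, 1.93% and 13.8%, and over all regions 1.30%, 1.74% and 8.15%. In 47.9% of the regions of all 4 lists the most significant row, whose summit was used, came from set A. With the set B summit throughout, a choice made after the data were seen, the distal shares were 1.96% in members, 10.5% in all 4 lists and 6.14% in those of like significance. Runs of at least 6 units were found at 20 members (0.508%) and at 2.499% of the union.

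The place of the runs around the summit differed as well. The median width was 462 bp in members, 1161 bp in all 4 lists and 1022 bp at like significance. A distance of 150 to 350 bp can therefore lie outside a member and inside a wider region. In regions of all 4 lists, runs of at least 3 GGAA units were rarer near the set B summit than beside it: 11.01 and 9.34 runs per 1000 regions per 100 bp within 100 bp of the summits of replicates 1 and 2, against 22.4 and 23.2 at 150 to 350 bp. In the members the order was the opposite, with 10.5 and 10.9 near the summit and 6.86 and 6.28 beside it. Regions of all 4 lists with like significance kept the first pattern, with 1.69 and 1.83 times as many runs beside the summit as near it. A window of 100 bp therefore misses most runs in the regions of all 4 lists, and the windows of 300 bp used for single motifs were chosen after the data were seen.

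**Figure D4:**
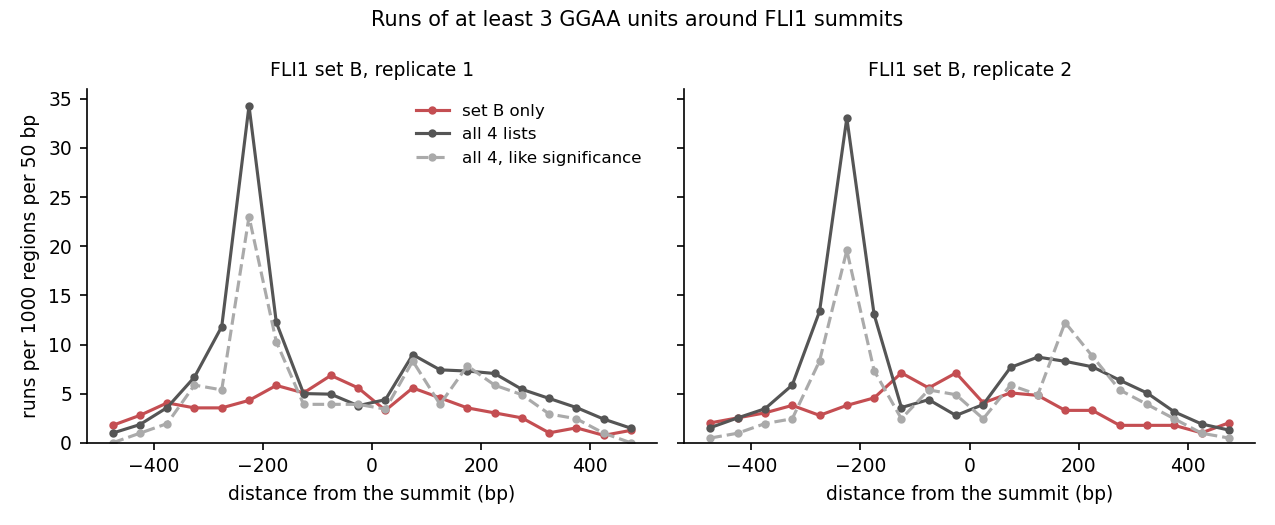
Runs of at least 3 GGAA units per 1000 regions in bins of 50 bp (vertical) by distance from the summit (horizontal, bp) of FLI1 set B replicate 1 (left) and replicate 2 (right), for set B only regions, regions of all 4 lists and those of like significance. The regions of all 4 lists peak to the left of the summit, at about 200 to 250 bp, and the set B only regions show no such peak.

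Single motifs were counted on both strands within 300 bp of the set B summit. The 8-letter ETS site CCGGAAGT was present at 3.09% of the members at starts, against 15.7% of the regions of all 4 lists at starts, 5.30% of those of like significance and 6.29% of all protein-coding gene starts in windows of that size. The shorter CGGAAG, which lies within the longer site, was present at 40.6%, 55.2%, 40.7% and 32.5% of the same groups. The GC box GGGCGG, bound by SP and KLF factors, was present at 84.5% of the members at starts, 83.3% in all 4 lists, 71.0% at like significance and 65.3% of all gene starts. At distal members the AP-1 site TGANTCA, bound by FOS and JUN dimers, was present in 33.9%, against 28.7% in all 4 lists and 28.8% at like significance. In the narrower window of 100 bp the AP-1 shares were 13.9%, 9.87% and 10.5%. At starts in that window, CGGAAG was present at 19.6% of the members and 24.5% of the regions of all 4 lists. It was present at 15.0% of those of like significance and 18.3% of all gene starts. For the same groups in that order, CCGGAAGT gave 1.38%, 5.07%, 1.69% and 4.50%, and GGGCGG 59.9%, 51.1%, 39.4% and 46.9%. A match is a description of the letters and not a bound site.

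Acetylation was sparse. H3K27ac overlapped 6.50% of the members in its replicate 1 list and 10.3% in replicate 2, against 18.7% and 26.2% of the regions of all 4 lists, 14.9% and 20.1% of those of like significance and 6.55% and 9.73% of the set A only regions. In both H3K27ac lists lay 161 members (4.09%, exact binomial 95% interval 3.49 to 4.75), against 7.47% of the union. The difference from the regions of all 4 lists was −14.06 ± 2.61 percentage points (SD, n = 2 lists; exact two-sided sign-flip p = 0.5, the smallest that 2 lists allow). Against the set A only regions it was 0.27 ± 0.44 points (exact p = 1), with opposite signs in the 2 lists.

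The regions differed in width, with a median of 462 bp in members and 1161 bp in all 4 lists, and an overlap of at least 1 base depends on width. Counted at the summit alone, H3K27ac covered 3.96% and 6.30% of the members and 7.72% and 10.5% of the regions of all 4 lists, a mean difference of −3.96 points. By overlap of at least 1 base, which depends on width, the gap was wider at starts than over all regions. There 7.18% and 10.1% of the members overlapped H3K27ac, against 25.5% and 33.5% in all 4 lists. The shares by band of G+C content use the same overlap, and no summit count at starts is given here. Of 5 bands of G+C content at starts, the lowest, 50 to 60%, gave 9.76% and 17.1% of 205 members against 32.3% and 41.6% of 2425 regions of all 4 lists. At 65 to 70% G+C the shares were 9.03% and 14.2% of 288 members, 16.3% and 23.7% of 1295 regions of all 4 lists, and 15.1% and 15.1% of 93 of like significance. Above 75% G+C they were 2.00% and 1.71% of 350 members and 4.44% and 5.56% of 90 regions of all 4 lists. H3K27ac was mapped in set A only, whose FLI1 lists lack these regions by the rule, so mark and set cannot be told apart.

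H3K27me3 was more frequent at the members than at the other groups of FLI1 regions. Its 2 lists covered 48.96 and 31.4 Mb, and the share of regions placed at random that would overlap them was not computed. The mark was mapped in set B only, the set that holds the members by the rule, so mark and set cannot be told apart. It overlapped 2.41% and 1.73% of the members in its 2 lists, against 0.651% and 0.528% of the set A only regions, 0.322% and 0.235% of the regions of all 4 lists and 0.343% and 0.245% of those of like significance. Both lists held 60 members (1.52%, exact binomial 95% interval 1.16 to 1.96), against 0.552% of the union. The difference from the set A only regions was 1.48 ± 0.40 points and that from the regions of all 4 lists 1.79 ± 0.42 points (SD, n = 2 lists each; exact two-sided sign-flip p = 0.5 in both, the smallest possible). Among distal regions the 2 differences were 0.44 and 0.58 points, with shares of 0.981% and 0.687% in members, 0.466% and 0.333% in set A only regions and 0.302% and 0.205% in all 4 lists. At starts the shares were 4.28% and 3.03% in members, 1.74% and 2.12% in set A only regions and 0.356% and 0.281% in all 4 lists. In 5 bands of G+C content at starts, the members ran from 2.57 to 6.60% in the first list and from 1.95 to 4.86% in the second, and the regions of all 4 lists from 0 to 1.03% and from 0 to 0.823%. The gap was smaller at 70 to 75% G+C (4.19% and 2.96% against 1.03% and 0.823%) than at 65 to 70% (6.60% and 4.86% against 0.386% and 0.309%).

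H3K9me3, also mapped in set B, was rare at the members. It overlapped 0.559% and 0.203% of them, against 3.77% and 2.46% of the set A only regions and 2.12% and 1.26% of the regions of all 4 lists. The 8 members in both lists (0.203%, exact binomial 95% interval 0.0877 to 0.3999) compare with 1.13% of the union. The differences were −2.73 ± 0.67 and −1.31 ± 0.35 points (SD, n = 2 lists each; exact two-sided sign-flip p = 0.5 in both). The second does not hold at the summit, where H3K9me3 covered 0.406% and 0.152% of the members and 0.384% and 0.136% of the regions of all 4 lists, nor among regions of 60 to 70% G+C (0.18 points); there the first difference was 0.04 points. No mark list of the 3 marks touched 3312 members (84.1%), against 78.9% of the union. The share was about the same in the set A only regions (83.9%) and lower in the regions of all 4 lists (67.3%).

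**Figure D5:**
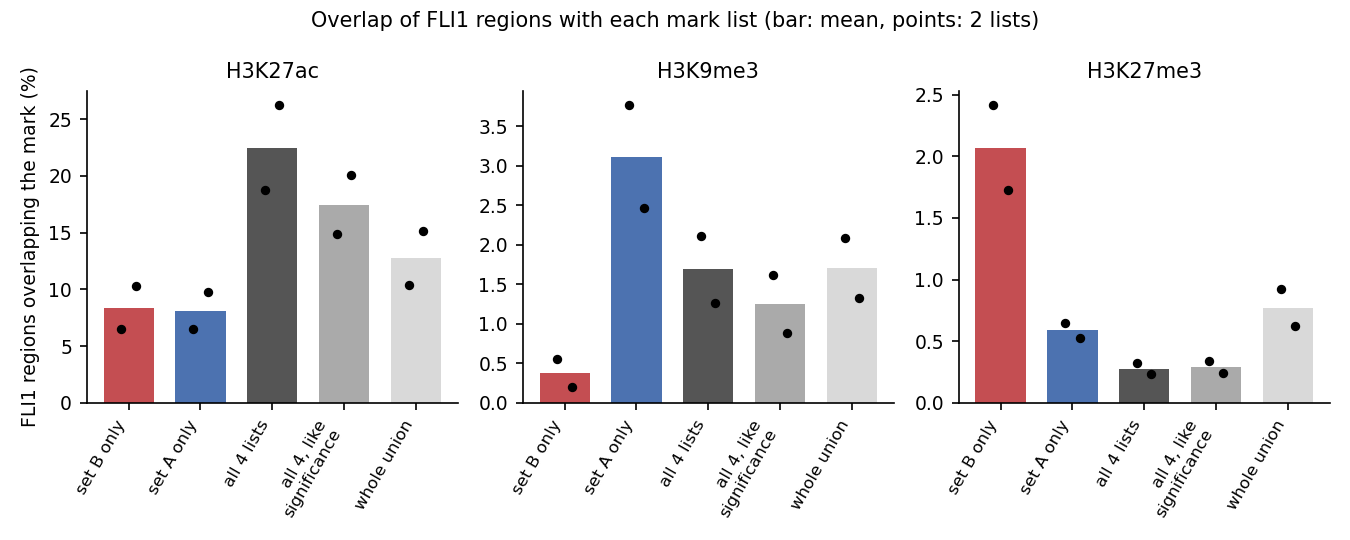
Share of FLI1 regions that overlap a row of each mark list (vertical, percent; scales differ between panels) in 5 groups of regions; bars show the mean of the 2 replicate lists and points the 2 lists. Set B only regions have the highest H3K27me3 bar (2.41% and 1.73%) and the lowest H3K9me3 bar (0.559% and 0.203%).

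The 12 strongest members, ranked by the mean of their fold percentiles in set B, are called here by their nearest gene. CORO1B, which encodes an actin-binding coronin, led with a fold of 36.0 in replicate 1 and 21.5 in replicate 2 (chr11:67443062-67443948, 71.7% G+C). The region over the start of NMT2, an N-myristoyltransferase, had 35.9 and 21.3 (chr10:15168263-15169336). At GPC1, a heparan sulfate proteoglycan of the cell surface, the folds were 40.3 and 20.4 (chr2:240434821-240435881). Replicate 1 was the higher of the 2 at all 3 genes. DVL1, a relay of WNT signals, had 35.5 and 20.6 with 81.1% G+C, and ZBTB24, a zinc-finger protein, 28.2 and 18.9. PHC1, a subunit of Polycomb repressive complex 1, had 30.2 and 18.1 in a region of 1091 bp over its start. The kinesin gene KIF3B had 25.4 and 19.0, the zinc-finger gene ZNF805 21.6 and 21.5, and the ubiquitin ligase gene CBL 25.9 and 17.9, each at a start. The other 3 lay 1 to 5 kb from a start: RRAS, a RAS-related GTPase, with 28.0 and 19.4, GNG8, a G-protein subunit, with 20.6 and 23.4, and SRRM3, a splicing factor, with 20.2 and 22.7. None of the 12 overlapped H3K9me3 or H3K27me3 in either list, and ZNF805 was the single one to overlap H3K27ac, in 1 of its 2 lists.

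The strongest distal member lay in a lncRNA gene 14692 bp from the nearest coding start, that of IZUMO2, with folds of 21.5 and 19.6 (chr19:50148004-50148464). The region 59561 bp from RAP2B, a RAS-family GTPase gene, had 19.6 and 19.9 (chr3:153221787-153222272). Its base composition, 46.5% G+C, was lower than the 61.2% near IZUMO2, and an AP-1 site lay within 100 bp of its summit. Folds of 21.5 and 17.5 were found 8595 bp from NGFR, the p75 neurotrophin receptor gene, folds of 20.1 and 18.2 near ZNF362, and folds of 14.9 and 23.4 near the glycosyltransferase gene B3GNT5. None of these 5 overlapped any mark.

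Of the members in both H3K27ac lists, the strongest were at the starts of FAM8A1 (22.3 and 16.1), of OLA1, an ATPase (15.0 and 18.0), and of ZNF507 (18.4 and 13.3), followed by a region 45444 bp from the ubiquitin ligase gene PJA2 (12.7 and 20.4) and one near LIMS2, a focal adhesion gene (11.99 and 17.6). In all, 65 of the 161 acetylated members were at starts and 79 were distal. The 8 members in both H3K9me3 lists were weaker, and the first 5 lay near SMYD3 (7.21 and 8.91), ADAMTS9 (8.37 and 7.61), PRL (8.48 and 6.86), ACRBP (7.61 and 7.43) and SH3BP4 (8.38 and 5.00). A single one of the 8 lay at a start, that of ZNF671, a zinc-finger gene, with 6.09 and 4.66.

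Of the 60 members in both H3K27me3 lists, 41 were at starts and 12 distal. The strongest by rank lay in an intron of NFIC (10.8 and 18.6), which was also one of the members with a GGAA run, then near MSMB (10.8 and 10.9) and at the starts of MEGF6 (11.7 and 9.34), C20orf204 (10.2 and 9.90) and DUSP4, a phosphatase of MAP kinases (13.6 and 8.01). Other starts among the 41, picked here after their names were seen, belong to developmental transcription factors: GATA2 (4.87 and 7.43), PAX7 (6.62 and 5.51), LHX9 (6.45 and 5.49), BARHL2 (6.16 and 7.34), DLX3 (6.81 and 4.26), TBX21 (6.44 and 5.00), HHEX (7.61 and 5.17) and FEV (7.44 and 5.81). Signalling genes were among them too, such as WNT6 (10.4 and 6.57) and TGFA (8.37 and 4.58). The folds at these 10 starts all lay below 11 in both replicates.

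Of the members with at least 4 GGAA units, the strongest lay near SLC35F2 (11.8 and 16.7), in NFIC, in an intron of DLGAP1 127591 bp from the nearest start, that of TGIF1 (9.78 and 16.8), near VXN (12.1 and 10.99) and in BCAR3 (10.8 and 11.3). In this group replicate 2 was above replicate 1 at SLC35F2, NFIC, TGIF1 and BCAR3.

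The series is titled for ETS1, an ETS transcription factor gene on the minus strand of chr11:128458761-128587558. Of the 4 FLI1 union regions in the gene or within 10 kb of it, 2 were members, none was found in all 4 lists and none was set A only. The stronger member (chr11:128522163-128522772, 73.1% G+C) held the alternative coding starts at 128522201, 128522264 and 128522310, with a fold of 14.9 in replicate 1 and 7.67 in replicate 2. The weaker (chr11:128507268-128507776, 51.7% G+C) lay in an intron, 1874 bp from the start at 128505394, with 8.37 and 6.39. The most upstream coding start of the gene, at 128587558, was 64786 bp from the nearer member. Neither member overlapped H3K27ac, H3K9me3 or H3K27me3 in any list. Their summit windows are shown for the contrast in base composition.
ETS1 alternative start, chr11:128522446-128522605, plus strand: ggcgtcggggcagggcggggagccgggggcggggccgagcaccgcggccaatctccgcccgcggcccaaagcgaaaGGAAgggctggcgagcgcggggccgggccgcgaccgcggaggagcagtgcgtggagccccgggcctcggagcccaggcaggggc
ETS1 intron, chr11:128507514-128507673, plus strand: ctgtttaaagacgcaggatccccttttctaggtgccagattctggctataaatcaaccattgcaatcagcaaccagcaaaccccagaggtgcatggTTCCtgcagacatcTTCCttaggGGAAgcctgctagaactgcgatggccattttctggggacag
The window at the alternative start was 81.25% G+C with 23 CpG and a single GGAA, and the intronic window 50% G+C with 2 CpG and 3 copies in either orientation.

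Of 19618 protein-coding genes, 1594 (8.13%) had a member within 1 kb of a start. A region of all 4 lists was also at a start of 265 of these (16.6%). A region of all 4 lists was at a start of 7379 of all genes (37.6%), and a set A only region at a start of 549 (2.80%). Gene groups were read against these shares, as counts and with no test.

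Of 30 genes for Polycomb complexes, which lay down and read repressive histone marks, 9 (30.0%) had a member at a start, and 15 (50%) had a region of all 4 lists. The 9 were PHC1, PHC3, BMI1, RNF2, PCGF5, RYBP and YAF2 of complex 1 and AEBP2 and PHF19 of complex 2. RNF2, the ubiquitin ligase of complex 1, had folds of 9.89 and 8.54, and BMI1 had 6.74 and 13.1. BMI1 and PHF19 also had regions of all 4 lists at their starts, 1 and 2. None of the 9 members overlapped a mark in any list.

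Of 23 genes of the TGF-beta pathway, 6 (26.1%) had a member at a start. A region of all 4 lists was at a start of 13 of the 23 (56.5%), and a set A only region at a start of 3 (13.0%). TGFBR2, a receptor that EWSR1::FLI1 is known to repress, had folds of 11.6 and 3.71, and the ligand gene TGFB1 9.98 and 4.58. The signal transducer gene SMAD3 had 7.62 and 3.80, the inhibitory SMAD7 8.20 and 6.57, the ubiquitin ligase gene SMURF2 14.7 and 8.64, and the corepressor gene SKI 6.77 and 5.76. Replicate 1 was higher at all 6. In replicate 2, TGFBR2 and SMAD3 were among the weakest peaks of the list. Their fold percentiles there were 1.57 and 2.03, and their −log10 q 3.13 and 2.77. SMAD3 and TGFB1 also had regions of all 4 lists at their starts, 3 and 1.

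Of 35 focal adhesion and actin genes, 8 (22.9%) had a member at a start: the integrins ITGA3, ITGAV and ITGB1, the adaptors TLN2, FERMT2 and TNS2, the crosslinker ACTN4 and the tropomyosin TPM2. ITGA3 was the strongest, with 18.5 and 14.3. TNS2 had 2 members, with 10.1 and 6.76 and with 8.80 and 5.18. ITGB1 also had a region of all 4 lists at a start, and its member lay 950 bp from a start.

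Of 22 neural crest factors, 5 (22.7%) had a member at a start: ETS1, PAX7, FOXD3, MSX1 and SNAI1. A set A only region was also at a start of 5 of the 22, against the 2.80% of all genes. MSX1 had 8.80 and 9.50 and SNAI1 6.37 and 7.04. Of 18 AP-1 factors, 3 (16.7%) did: FOSL2, with 2 members (9.12 and 5.88, and 10.9 and 5.71), MAFF and MAFK. Of 27 ETS family genes, 4 (14.8%) did: ETS1, ERF, ETV4 and FEV. ERF, an ETS repressor, had 2 members beside a region of all 4 lists, with 7.03 and 5.61 and with 6.81 and 5.96. ETV4 also had 1 region of all 4 lists at a start.

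Among 20 genes that the fusion is known to repress, 3 (15.0%) had a member at a start, ETS1, TGFBR2 and IGFBP5 (8.51 and 12.5). Among 30 activated ones, 4 (13.3%) did, FEZF1, HOXD13, PAX7 and VRK1. In replicate 2 the HOXD13 member was among the weakest peaks of the list, at fold percentile 1.38 with a −log10 q of 2.08. A set A only region was also at a start of 4 of the 30 (13.3%) and of 0 of the 20 repressed genes, against the 2.80% of all genes. FEZF1 had 2 regions of all 4 lists at its starts as well. A region of all 4 lists was at a start of 8 of the repressed genes (40%) and 20 of the activated ones (66.7%), against the 37.6% of all genes. The remaining groups were nearer to the share of all genes: 3 of 30 respiratory chain genes (10.0%; ATP5PB, COX4I1 and SDHA), 2 of 22 YAP and TEAD pathway genes (9.09%; AXL and CRIM1), 6 of 74 cytosolic ribosomal protein genes (8.11%) and 2 of 30 DNA repair and replication genes (6.67%). RPL21 was the strongest of the ribosomal protein genes, with 19.6 and 10.5. ATP5PB was the one gene of these groups whose member overlapped H3K27ac in both lists. SDHA also had 1 region of all 4 lists at a start.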

How the data were processed

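The 14 CUT&RUN samples, from TC-32 cells without treatment and with FLI1, H3K27ac, H3K9me3, H3K27me3 or IgG antibodies, were grouped by antibody and set, per the labels. The authors deposited 10 peak lists, one for each antibody library, on GRCh38/hg38. cutadapt 4.4, Bowtie2, Picard 2.17.11 and MACS2 2.1.1 are named, with no role, in the submitters' processing notes. The deposited lists give a fold enrichment, −log10 p and −log10 q values, a score (not used) and, in FLI1 and H3K27ac lists, a summit offset. The lowest −log10 q in the FLI1 lists was 2.00. Lists hold no read totals, so the depth behind a peak is unknown. Replicate libraries are numbered in the labels, which do not say whether they came from separate cultures.

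From these lists, rows sharing at least 1 base were merged, and each region took the values of its most significant row in a list. Starts are those of protein-coding transcripts in GENCODE 44, and sequence was read from hg38; no row ended beyond a chromosome. Overlap with a mark means at least 1 shared base. Intervals are exact (Clopper-Pearson, 95%) and cover counting error only. Mark differences were computed in each of the 2 lists of a mark and tested with an exact two-sided sign-flip permutation. pandas 2.3.3, scipy 1.17.1 and pysam 0.24.0 were used, and the functions were tested on simulated lists.

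Named regions were the 12 strongest members by mean percentile of fold, the 6 strongest at starts and 6 distal, the 5 strongest in both lists of each mark and with GGAA runs, all within 10 kb of ETS1, the 5 genes with most members (ties by mean percentile of fold), and every listed gene with a member at a start. One of the distal regions and one of the listed genes that this rule names are not reported here. The members, gene lists and motifs were chosen with earlier results of these data known. Alternatives were stricter or equal-length lists, other overlap and distance rules, and leaving out each library.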

Additional observations from a re-analysis of the deposited data

How the results depend on the processing

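The deposited lists fix the significance at which a region counts as absent, and the depth behind them is unknown. Without 1 FLI1 library, the number of members was 5270 to 10496, the share at starts 29.8 to 40.7%, the distal share 49.6 to 59.5% and the share with at least 4 GGAA units 1.12 to 1.46%. Leaving out either set B library moved the count past 1.5 times (6061 without replicate 1, 10496 without replicate 2). With rows of −log10 q of at least 5 the start and distal shares were 40.1% and 50.01%, and with lists of equal length (29339 regions each) 40.4% and 49.9%. Starts within 0.5 or 2 kb gave 35.6% and 41.7%, and a distal limit of 10 kb 43.7%. At least 3 or 6 GGAA units gave 2.23% and 0.508%.

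The H3K27ac difference from set A only regions changed sign with the summit inside the mark row (−0.0262 points), among regions of 60 to 70% G+C (−0.92) and without 1 library (range −1.73 to 2.55). The H3K9me3 difference from regions of all 4 lists became 0.0195 points at the summit and 0.18 at 60 to 70% G+C, where that from set A only regions became 0.0443. The causes were not tested. The H3K27ac difference from regions of all 4 lists and both H3K27me3 differences kept their sign under every alternative run (16, 15 and 16), including regions of like significance (−9.07 points for H3K27ac, 1.78 for H3K27me3). Merging of touching rows, the 60 to 70% G+C band, like significance and the windows of 300 bp were chosen after seeing the data. No paired analysis was possible because each mark was mapped in 1 set only and each difference was taken within a single mark list.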

Other observations

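Several genes held more than 1 member in their body or within 10 kb of it. NTM, a cell adhesion gene of 966 kb, held 7 members beside 28 regions of all 4 lists and 5 set A only regions, out of 100 union regions. Members made up 7.15% of the whole union, and the count in NTM was near that share. NSMCE2 and DAB1 held 6 members each, out of 24 and 67 union regions, and 10 genes held 5. Of these 10, ASAP2 and PLEC had the highest mean percentile of fold, with 15 and 11 union regions. PLEC encodes plectin, a cytoskeletal linker, and its gene spans 61.6 kb, against 1552 kb for DAB1. Within 5 kb of another member lay 362 members (9.19%), and the like share for other groups of regions was not computed.

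The members were not spread evenly over the chromosomes. They made up 12.3% of the union regions on chromosome 19 and 9.29% on chromosome 22, where the median G+C content of union regions was 59.1% and 54.5%, and 4.33% on chromosome X, where it was 45.3%. As a share of the regions in both set B lists, the range was narrower, from 12.4% on chromosome X to 20.9% on chromosome 22.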
